A study of Astatotilapia calliptera and Pundamilia nyererei and Oreochromis niloticus with 31 samples.

Results

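The long terminal repeats (LTRs) of Gypsy elements were described here through the small RNA (sRNA) reads that mapped to them in gonads and muscle of Malawi cichlids. The members are all families of the curated transposable element (TE) annotation whose name begins with Gypsy and carries the tag LTR. There are 100 of them among 557 families, and 99 have an internal entry of the same number, which holds the sequence between the repeats. Gypsy-103 has an LTR entry and no internal entry, and 4 other Gypsy numbers have an internal entry without an LTR entry. The libraries came from wild-type fish of 3 species, and none had been treated or modified. The species are Astatotilapia calliptera (AC), Tropheops sp. 'mauve' (TM) and Maylandia zebra (MZ). Ovaries of AC are represented by 3 libraries, testes by 4 in AC, 4 in TM and 2 in MZ, and muscle by 1 library of AC. No age is given in the labels used here. According to the methods, replicates were size-matched separate fish, AC and TM were raised in aquaria, and the muscle was dorsal muscle. The MZ fish are described there as adult dominant males, captive bred and bought from a supplier. Social status is given for MZ alone, so it cannot be told apart from species in the comparisons with MZ. The table holds TE families only, so the labelled organs could not be checked against marker genes.

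Gypsy elements are retrotransposons, which copy themselves through RNA. An intact copy has an LTR at each end of an internal region that encodes the Gag and Pol proteins, and the LTR holds the promoter and the polyadenylation signal. Recombination between the repeats of 1 copy can remove the internal region and leave a solo LTR in the genome. In animal gonads, Piwi proteins loaded with Piwi-interacting RNAs (piRNAs) recognise TE transcripts by sequence and silence them, and fish have this pathway in both ovaries and testes. Most sRNAs of 24 to 35 nucleotides that map to TEs in gonads are therefore taken as piRNAs, whereas muscle is used as an organ with little piRNA. The values analysed here do not separate piRNAs from other fragments of the same length, nor sense from antisense reads.

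Each value is an rlog (regularised log) of normalised reads in log2 units, so a difference of 1 is 2-fold. A level is the rlog value of an entry in a library. It was not divided by length or by copy number, so the order of entries is an order of reads and not of reads per base. Depth differed widely between libraries. A member had a median of about 867 to 1546 reads in AC testes, 658 to 1845 in TM testes, 447 and 993 in the MZ libraries, 63.1 to 237 in AC ovaries and 1.9 in AC muscle, as estimated back from the rlog values. In muscle 94 of 100 members were estimated at fewer than 10 reads. In AC ovaries 11 were in replicate 1, 4 in replicate 2 and 0 in replicate 3. All 100 members nevertheless passed the minimum of 10 on the linear scale that was used for testing. That scale is of normalised values and not of reads. In bulk libraries such as these, fewer germ cells and fewer piRNAs per cell cannot be told apart. TM testes replicates 1 and 3 agreed within sampling noise in the Gypsy LTR entries, where 5 of 100 lay beyond the 95% limit of counting error and the mean squared difference was 1.07 times the counting variance, against 25 to 65 of 100 for the other replicate pairs. They were counted as 1 sample, so n = 3 for TM in the tests. Over all 557 families 90 lay beyond that limit, so they were not shown to be 1 library, and the counts of calls with both counted are given beside each comparison with TM.

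The 100 members covered a wide range of levels, and the order of the members was much the same in every gonad group. In AC testes the group means ran from 4.07 to 11.90, with a median of 8.45 and quartiles at 6.84 and 9.39. The medians were 8.36 in AC ovaries, 8.50 in TM testes, 8.45 in MZ testes and 8.58 in the muscle library. Spearman's rho of the member levels between gonad groups lay between 0.96 and 0.99 over 100 members, and between 0.92 and 0.93 between muscle and the gonad groups. These rank correlations are descriptive. Levels were not divided by length or copy number, and the part of these in the order was not tested. In muscle most members had fewer than 10 estimated reads, and rlog shrinks such entries, so its rho says little about the order. In AC testes 97 of the 100 members lay below the median of all families, which was 10.79.

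**Figure D1:**
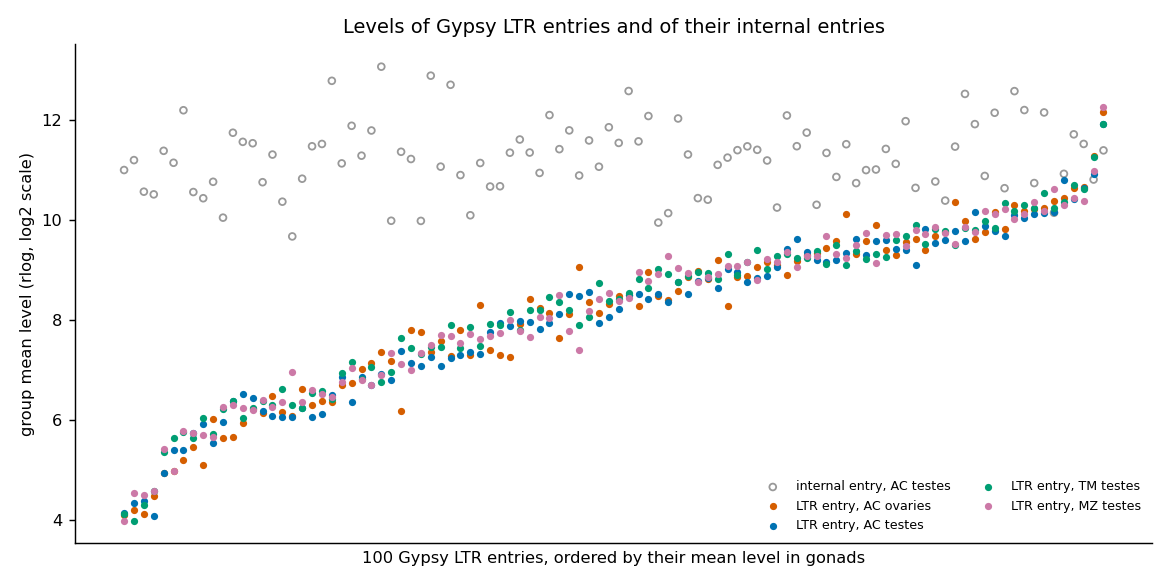
Group mean levels (rlog, log2 scale) of the 100 Gypsy LTR entries in AC ovaries, AC testes, TM testes and MZ testes, ordered by their mean over these groups, with the level of the internal entry of the same number in AC testes as open circles. The LTR levels rise from about 4 to 12 in all 4 groups, whereas the internal entries lie mostly between 10 and 13 at every place in the order.

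Gypsy-84 had the most reads of all members in the gonads. Its LTR entry was at 12.35, 12.10 and 12.01 in AC ovaries, at 11.96, 11.91, 11.85 and 11.89 in AC testes, at 12.44 and 12.05 in MZ testes and between 11.67 and 12.03 in TM testes. The 3 ovary libraries lay above the 4 testis libraries of AC, but none of the 4 comparisons passed the test for this entry. It was also the 1 pair in which the LTR entry stood above the internal entry in all 14 libraries, by 0.17 to 0.87. Gypsy-49 came next, with 11.28, 11.43 and 11.11 in AC ovaries and 10.92, 10.86, 11.00 and 10.88 in AC testes, and its LTR entry was the highest member in muscle, at 12.06. The Gypsy-40, Gypsy-105 and Gypsy-58 entries followed, with means over the 5 groups between 10.47 and 10.79. At the other end, the LTR entries of Gypsy-88, Gypsy-50 and Gypsy-69 had group means between 3.98 and 4.54, although their internal entries lay between 9.87 and 11.68 in single libraries. The level of an LTR entry said little about the level of its internal entry: over 99 pairs in AC testes Spearman's rho was 0.13.

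Within a library, the LTR entry minus the internal entry of the same number gives a difference in which the scaling of the library cancels. It is not a plain ratio of reads, since rlog shrinks entries with few reads and LTR entries mostly have the fewer. How far this and the unequal depth of the libraries move the difference was not tested. The median of this difference over 99 pairs was -3.21 in AC ovaries, -3.03 in AC testes, -2.83 in TM testes, -2.96 in MZ testes and -2.35 in muscle. By library it ran from -3.43 to -3.16 in AC ovaries, from -3.25 to -2.85 in AC testes and from -2.93 to -2.74 in the other testes except for MZ replicate 2, at -2.98. The internal entry thus had more reads in nearly every pair, and the LTR entry stood above it in 1 to 4 of 99 pairs per library. The exceptions in 1 or more libraries were Gypsy-84, Gypsy-49, Gypsy-58, Gypsy-107 and Gypsy-73, which are named here after their values were seen. How much of the difference is the length of the 2 entries was not tested, since no lengths were used.

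Testes and ovaries of AC were compared to ask which members differ between these whole organs. On the deposited scale 12 of 100 Gypsy LTR entries were higher in testes and 14 were lower (limma, adjusted p under 0.05), against 20.8% and 21.3% of all 554 families tested. The median change of the members was -0.12, with quartiles at -0.34 and 0.19, and that of all families was -0.01. The internal entries of Gypsy moved further to one side, with 9 of 103 higher and 51 of 103 lower and a median of -0.34. Among the LTR entries of other superfamilies, 5 of 55 were higher and 2 of 55 lower, with a median of 0.06. The split of the members depends on the scale. When libraries were scaled to all their reads of 24 to 35 nucleotides, the median of all families moved to 1.35 and that of the members to 1.24, with 46 members higher and 0 lower (limma; 0 lower also at an unadjusted p under 0.05), against 54.5% and 0.18% of all families on that scale. Scaled to the summed TE values, 38 were higher and 0 lower (2 lower at an unadjusted p under 0.05), against 48.2% and 5.05% of all families, and the median was 0.26. Without testis replicate 1 the number of higher members was 7, and with all 5 groups in 1 fit the number of lower members was 25. The members' median stood 0.11 below that of all families, and 41 of 100 members lay above that of all families. Rescaling moves every family by the same amount, so these 2 values are alike on the 3 scales by construction. One DNA family, NA-DNA-22, held 9.89% to 24.4% of the summed TE values in single ovary libraries and 1.45% to 1.85% in single testis libraries. Its part in these shifts was not tested.

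Among the members higher in testes, Gypsy-87 changed most. Its LTR entry was at 6.30, 6.08 and 6.15 in ovaries and at 7.85, 6.58, 7.53 and 7.51 in testes, a difference of 1.19 ± 0.26 (SE, adjusted p = 0.00544). Testis replicate 2 lay well below the other 3 testis libraries, yet above all ovary libraries, as the naming rule required. Its internal entry rose less, by 0.55 ± 0.09 (adjusted p = 0.00163), and the difference between the entries did not pass the test. The Gypsy-32 entry, one of the rarer members, was at 4.99, 5.05 and 5.20 in ovaries and 5.76, 5.92, 6.09 and 5.83 in testes, a rise of 0.82 ± 0.13 (adjusted p = 0.00127) that its internal entry matched at 0.86 ± 0.16. Gypsy-68 behaved in the same way, with 7.47, 7.23 and 7.17 in ovaries, 7.89, 7.82, 7.95 and 8.03 in testes, a rise of 0.63 ± 0.12 in the LTR entry and of 0.61 ± 0.11 in the internal entry. In both pairs the LTR and the internal entry moved together.

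In Gypsy-110 and Gypsy-98 the LTR entry rose and the internal entry did not pass the test on the deposited scale. The Gypsy-110 LTR entry was at 5.69, 5.85 and 5.39 in ovaries and 6.29, 6.49, 6.58 and 6.13 in testes, a rise of 0.73 ± 0.16 (adjusted p = 0.00577), beside a change of -0.14 ± 0.13 in the internal entry (adjusted p = 0.403). For Gypsy-98, a member with many reads, the values were 9.55, 9.89 and 9.39 in ovaries and 10.19, 10.12, 10.12 and 10.16 in testes, a rise of 0.53 ± 0.13 (adjusted p = 0.0084), with 0.18 ± 0.14 in the internal entry. The testis libraries of Gypsy-98 spanned 0.07 and, as the naming rule required, lay above every ovary library. Gypsy-71 closed the named list with a rise of 0.42 ± 0.14 (adjusted p = 0.0389) at levels near 5, beside a larger 0.79 ± 0.21 in its internal entry. This call was lost without ovary replicate 2 or 3 or without testis replicate 1, 2 or 3 (adjusted p = 0.0595 to 0.102). The members named here as higher in testes were higher on all 3 scales. The 2 other scales moved every family up in testes, so this direction holds by construction. The values of the internal entries beside them are on the deposited scale. The LTR entries of Gypsy-32, Gypsy-110 and Gypsy-71 have few reads in ovaries. They lay below the alternative minimum of 100, so that setting did not test them.

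The calls of the members lower in testes held on the deposited scale only. Scaled to the summed TE values, the 8 named entries stayed lower, by -0.59 to -0.16, without passing the test (adjusted p = 0.0638 to 0.463), and scaled to all reads each came out higher in testes, by 0.39 to 0.83, again without passing it. Gypsy-23 was furthest down on the deposited scale. Its LTR entry was at 7.81, 8.52 and 8.52 in ovaries and 7.52, 6.91, 7.29 and 7.54 in testes, a difference of -0.97 ± 0.22 (adjusted p = 0.00606), beside -0.26 ± 0.38 in an internal entry that varied between 10.72 and 12.53 within ovaries. The Gypsy-28 entry was at 10.33, 9.86 and 10.13 in ovaries and 9.29, 9.40, 9.05 and 9.58 in testes, a difference of -0.77 ± 0.15 (adjusted p = 0.00314), close to the -0.72 ± 0.11 of its internal entry. The Gypsy-6 values were 10.40, 10.05 and 10.63 in ovaries and 9.89, 9.75, 9.78 and 9.67 in testes, a difference of -0.59 ± 0.14 (adjusted p = 0.0084), beside -0.43 ± 0.15. In Gypsy-28 and Gypsy-6, as in Gypsy-86, Gypsy-74 and Gypsy-13, the LTR and the internal entry changed by amounts that differed by less than 0.2.

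Gypsy-86, Gypsy-74, Gypsy-13, Gypsy-100 and Gypsy-26 made up the rest of the named members lower in testes, with differences of -0.69 to -0.53 and SEs of 0.11 to 0.18. The naming rule required that their groups not overlap. In Gypsy-74 ovary replicate 2, at 7.29, still lay close to the testis libraries, at 7.07 to 7.16. The other ovary libraries were at 8.02 and 8.06. The Gypsy-74 call was lost without ovary replicate 1 or 3 (adjusted p = 0.0619 and 0.0652). That of Gypsy-100 was lost without ovary replicate 1 or 3 or testis replicate 1 or 2 (adjusted p = 0.0566 to 0.112). By level, the upper 50 members held 3 of the 12 higher and 7 of the 14 lower calls, and the lower 50 held the other 9 and 7.

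**Figure D2:**
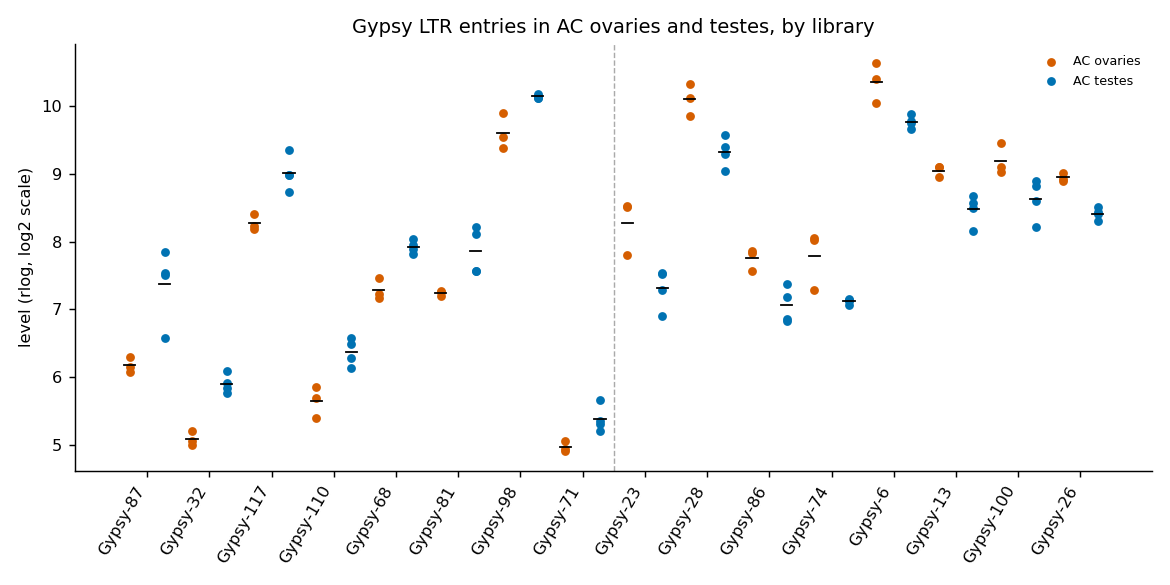
Levels (rlog, log2 scale) of the 16 named Gypsy LTR entries in each AC library, with 3 ovary and 4 testis libraries per entry and black bars for group means; entries left of the dashed line were higher in testes and those right of it lower on the deposited scale. The naming rule required that ovary and testis libraries not overlap, which held in 33 of 100 members and 48.2% of all families tested. For the 8 on the right the direction turned when libraries were scaled to all reads of 24 to 35 nucleotides.

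The difference within a pair asks whether the LTR and the internal entry of 1 element shift together between organs, and scaling between libraries cancels in it. In testes the LTR entry gained on the internal entry in 28 of 99 Gypsy pairs and lost in 4, against 24% and 4.55% of all 154 pairs tested. The median shift was 0.17 in Gypsy pairs and 0.13 in the 55 pairs of other superfamilies. On the deposited scale the 2 entries were called together in 16 of 99 pairs, 4 higher and 12 lower. In 37 pairs the internal entry alone was lower, and in 6 the LTR entry alone was higher. Pearson's r between the change of the LTR entry and that of the internal entry was 0.53 over 99 pairs, a description of entries measured in the same libraries. The count was 20 without testis replicate 4 and 21 without testis replicate 1 or 3, instead of 32.

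On the deposited scale, Gypsy-81 and Gypsy-117 were the only pairs of the 99 whose entries were called in opposite directions between the organs. The Gypsy-81 LTR entry was at 7.20, 7.26 and 7.27 in ovaries and at 8.21, 8.11, 7.56 and 7.57 in testes, a rise of 0.62 ± 0.18 (adjusted p = 0.0215), while its internal entry went from 11.93, 12.16 and 12.39 down to 11.44, 11.39, 11.20 and 11.32, a difference of -0.82 ± 0.12 (adjusted p = 0.000794). The fall of the internal entry is on the deposited scale. Scaling to all reads moved every family up by the same amount, the median of all families from -0.01 to 1.35. That move is larger than the fall, so the opposite directions do not hold on that scale. Relative to the internal entry, the LTR entry was at -4.73, -4.90 and -5.12 in ovaries and at -3.22, -3.28, -3.64 and -3.75 in testes, a shift of 1.44 ± 0.18 (adjusted p = 0.000242). No alternative without 1 library ended this shift, although the call of the LTR entry alone was lost without ovary replicate 1 or 3 or testis replicate 1 or 2 (adjusted p = 0.0506 to 0.0588).

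For Gypsy-117 the LTR entry was at 8.23, 8.19 and 8.41 in ovaries and 8.99, 8.98, 9.36 and 8.73 in testes, a rise of 0.74 ± 0.15 (adjusted p = 0.00403). On the deposited scale the internal entry differed by -0.48 ± 0.12 (adjusted p = 0.00912). As for Gypsy-81, this fall is smaller than the move of every family when scaled to all reads. The LTR entry relative to the internal entry was at -3.50, -3.44 and -3.38 in ovaries and at -2.01, -2.31, -2.12 and -2.46 in testes, a shift of 1.22 ± 0.15 (adjusted p = 0.000242). The organs were separated by 0.92 on this measure, more than the spread of 0.45 within testes. Gypsy-105 and Gypsy-108 shifted in the same direction, by 1.16 ± 0.15 and 1.04 ± 0.17, but on the deposited scale their LTR entries hardly moved. Which entry of a pair moved depends on the scale, since scaling to all reads put the median of all families at 1.35. The values that follow are on the deposited scale. The Gypsy-105 LTR entry changed by -0.01 ± 0.14 and its internal entry by -1.17 ± 0.10. The Gypsy-108 LTR entry changed by 0.06 ± 0.15 and its internal entry by -0.98 ± 0.11.

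In the opposite direction, the LTR entry lost on the internal entry in testes in Gypsy-78, with -5.88, -6.03 and -5.23 in ovaries and -6.50, -6.47, -6.45 and -6.34 in testes (-0.73 ± 0.18, adjusted p = 0.0128). Gypsy-33 followed at -0.64 ± 0.20 (adjusted p = 0.0325), a call lost without ovary replicate 1 or 3 or testis replicate 1 or 3 (adjusted p = 0.0738 to 0.0904). Gypsy-50 was at -0.39 ± 0.13 (adjusted p = 0.0468), a call lost without any 1 of the 7 libraries (adjusted p = 0.0504 to 0.182). Only Gypsy-78 kept this direction of call in every fit without 1 library among the 3 named. All 3 have LTR entries with few reads, below the alternative minimum of 100, so that setting did not test them. Of the 76 Gypsy pairs it did test, 27 were higher and 0 lower (limma).

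**Figure D3:**
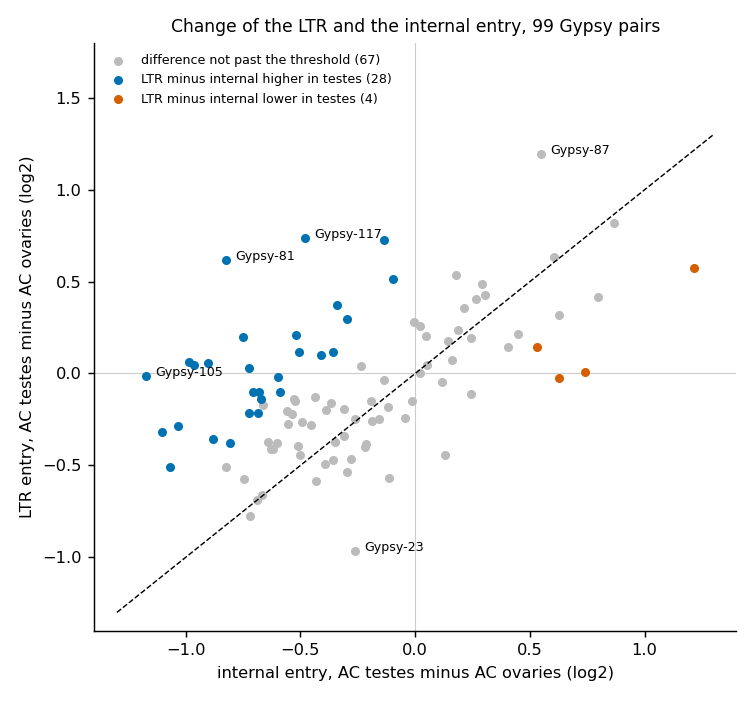
Change from AC ovaries to AC testes (log2, deposited scale) of the LTR entry against that of the internal entry for 99 Gypsy pairs, with the line of equal change dashed and pairs coloured by the test of the difference. The 28 pairs whose LTR entry gained on the internal entry lie above the line, mostly with an internal entry below 0, and the 4 whose LTR entry lost lie below it.

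Testes of AC and TM were compared to ask which members differ between species in 1 organ. In AC testes 8 of 100 Gypsy LTR entries were higher than in TM testes and 24 were lower, against 15.2% and 17% of all families. The median change was -0.17 for the members, -0.11 for the Gypsy internal entries, -0.002 for the LTR entries of other superfamilies and -0.02 for all families. The members' median was 0.16 below that of all families, a gap that rescaling leaves in place by construction. The counts were 9 and 19 when scaled to all reads, against 17.8% and 9.87% of all families. They were 10 and 22 when scaled to the summed TE values, against 19% and 14.3%. With TM replicates 1 and 3 counted separately they were 9 and 29. Without TM replicate 2 the counts were 5 higher and 13 lower, and without TM replicate 4 they were 5 and 12. Reads of all 3 species were mapped to the AC genome, and what that does to the species comparisons was not tested.

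Gypsy-75, Gypsy-64 and Gypsy-116 led the members with fewer reads in AC. The Gypsy-75 entry was at 7.88, 7.86, 8.12 and 7.86 in AC testes and 8.73, 8.73, 8.83 and 8.69 in TM testes, a difference of -0.81 ± 0.09 (adjusted p = 0.000394), and its internal entry differed by -0.45 ± 0.12 (adjusted p = 0.0214). The Gypsy-116 entry was at 8.98, 9.13, 9.23 and 9.03 in AC and 9.78, 9.94, 9.82 and 9.90 in TM, a difference of -0.79 ± 0.08 (adjusted p = 0.00036) that the internal entry shared at -0.78 ± 0.08. In Gypsy-64 the LTR entry was at 6.32, 6.48, 6.17 and 6.42 in AC and 7.07, 7.22, 7.02 and 7.16 in TM, a difference of -0.79 ± 0.10 (adjusted p = 0.000645), but the internal entry was at -0.07 ± 0.11. Gypsy-91 and Gypsy-109, both at -0.67 ± 0.08, likewise stood beside internal entries that changed by -0.02 ± 0.15 and 0.03 ± 0.08. The naming rule required that the AC and TM libraries not overlap in these 5. That held in 41 of 100 members and 43.0% of all families tested.

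Among the members with more reads in AC than in TM, Gypsy-13 came first, at 8.67, 8.50, 8.16 and 8.58 in AC against 7.89, 7.89, 7.92 and 7.87 in TM, a difference of 0.59 ± 0.12 (adjusted p = 0.00836) beside 0.56 ± 0.12 in its internal entry. Gypsy-73 followed at 0.51 ± 0.11 (adjusted p = 0.00905), with 0.70 ± 0.13 in the internal entry. Gypsy-83, a member with many reads, was at 10.86, 10.62, 10.74 and 10.97 in AC and 10.18, 10.41, 10.12 and 10.46 in TM, a difference of 0.45 ± 0.11 (adjusted p = 0.0152). The Gypsy-98 entry differed by 0.36 ± 0.09 (adjusted p = 0.0159, and 0.0664 without TM replicate 2) while its internal entry was at -0.26 ± 0.10. Gypsy-50, among the rarest members, differed by 0.35 ± 0.07 (adjusted p = 0.0603 with all groups in 1 fit), against 0.99 ± 0.09 in its internal entry.

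Relative to the internal entry, the LTR entry was higher in AC than in TM testes in 13 of 99 Gypsy pairs and lower in 19, against 14.3% and 18.8% of all pairs. Without TM replicate 2 or 4 the number of changed pairs fell from 32 to 17, and with TM replicates 1 and 3 counted separately it was 38. Gypsy-107 differed most. Its LTR entry relative to the internal entry was at -0.63, -0.83, -0.41 and -0.60 in AC and at 0.21, 0.36, 0.21 and 0.31 in TM, a difference of -0.91 ± 0.12 (adjusted p = 0.000573). TM was thus the species in which this LTR entry had more reads than the internal entry, in all 4 libraries. Gypsy-8 was the 1 pair whose entries were called in opposite directions between these species, with -0.52 ± 0.13 in the LTR entry (adjusted p = 0.0176) and 0.29 ± 0.09 in the internal entry (adjusted p = 0.0406), and a difference within the pair of -0.81 ± 0.14 (adjusted p = 0.00223). Gypsy-64 and Gypsy-109 were the others named in this direction, at -0.72 ± 0.15 (adjusted p = 0.1 with all groups in 1 fit) and -0.70 ± 0.12.

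In the other direction, Gypsy-81 and Gypsy-117 had a higher LTR entry relative to the internal entry in AC than in TM testes. The differences were 0.84 ± 0.15 (adjusted p = 0.00223) and 0.78 ± 0.12 (adjusted p = 0.00121). Both pairs had opposite calls between organs on the deposited scale. The comparison shares the AC testis libraries with the one between organs, so it does not bear on it independently. Gypsy-10 was at -1.37, -1.48, -1.47 and -1.38 in AC and -2.11, -2.07, -2.15 and -2.10 in TM, a difference of 0.68 ± 0.10 (adjusted p = 0.000893). Both Gypsy-10 entries were lower in AC, by -0.49 ± 0.11 for the LTR entry and -1.17 ± 0.10 for the internal entry. Gypsy-98 completed the named pairs at 0.62 ± 0.11 (adjusted p = 0.00223).

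Against MZ testes, 5 of 100 members were higher in AC and 14 lower, against 7.22% and 9.03% of all families, with a median of -0.12 for the members and -0.02 for all families. A fit without MZ replicate 1 or without MZ replicate 2 has a single MZ library, which is assumed to vary like the libraries of the other group. In these fits no member was called in either direction by limma, although 27 and 31 members had an unadjusted p under 0.05. Without AC replicate 1 the counts were 2 and 2. They also depend on the scale, since scaling to all reads gave 35 higher and 2 lower, against 57.4% and 1.62% of all families, as the median of all families moved to 0.37. Scaled to the summed TE values, 5 were higher and 9 lower, against 12.1% and 6.14%. The members' median relative to that of all families was -0.105, a value that rescaling leaves in place by construction.

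Gypsy-13 differed most, with 8.67, 8.50, 8.16 and 8.58 in AC against 7.54 and 7.22 in MZ, a difference of 1.10 ± 0.17 (adjusted p = 0.0147). Without MZ replicate 1 and 2 the difference was 1.26 and 0.94 (adjusted p = 0.0504 and 0.0712). Its internal entry differed by 0.87 ± 0.14. Gypsy-79 was at 8.44, 8.41, 8.75 and 8.47 in AC against 7.87 and 7.67 in MZ, a difference of 0.75 ± 0.14 (adjusted p = 0.0207). Gypsy-83, Gypsy-77 and Gypsy-98 were higher in AC by 0.50 ± 0.13, 0.45 ± 0.12 and 0.40 ± 0.09. On the lower side, Gypsy-114 was at 7.95, 8.58, 8.51 and 8.39 in AC against 9.27 and 9.25 in MZ, a difference of -0.90 ± 0.18 (adjusted p = 0.0207), and of -0.89 and -0.91 without MZ replicate 1 and 2 (adjusted p = 0.0825 and 0.103). Gypsy-2 was at 6.01, 6.48, 5.91 and 5.79 in AC against 6.72 and 7.18 in MZ, a difference of -0.90 ± 0.22 (adjusted p = 0.0339).

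Gypsy-116, Gypsy-64 and Gypsy-91 were lower in AC than in MZ by -0.69 ± 0.11, -0.68 ± 0.13 and -0.55 ± 0.10. Scaled to all reads, Gypsy-64 and Gypsy-91 came to -0.29 and -0.16 and lost their calls (adjusted p = 0.103 and 0.189), as did Gypsy-2 at -0.51 (adjusted p = 0.0817), while Gypsy-116 kept its call at -0.30 (adjusted p = 0.0477). Beside these values on the deposited scale, the same AC libraries gave -0.79 ± 0.08, -0.79 ± 0.10 and -0.67 ± 0.08 against TM. The comparisons share the 4 AC libraries, so neither supports the other independently. Leaving out AC libraries ended several of the MZ calls as well: without AC replicate 1, Gypsy-64 and Gypsy-91 came to adjusted p = 0.0534 and 0.0524, and Gypsy-98 missed the threshold without any 1 of the 6 libraries (adjusted p = 0.0519 to 0.126). Gypsy-83, Gypsy-77 and Gypsy-2 were each lost without 3 of the AC libraries (adjusted p = 0.0585 to 0.105).

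**Figure D4:**
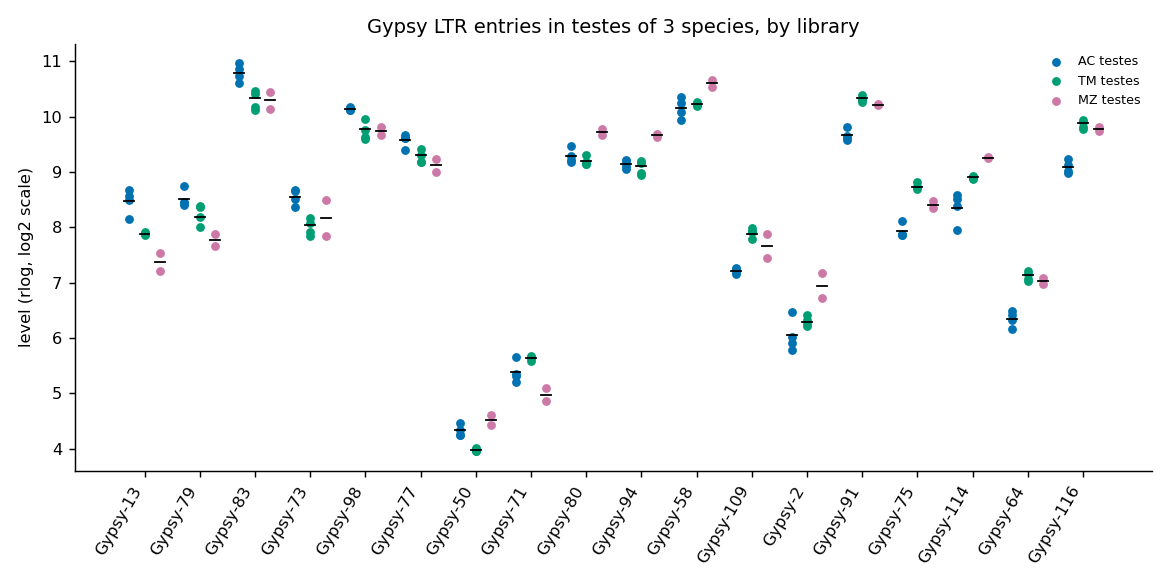
Levels (rlog, log2 scale) of the 18 Gypsy LTR entries named in the species comparisons, in each testis library of AC (4), TM (4) and MZ (2), ordered from higher to lower in AC relative to the other species, with black bars for group means (TM replicates 1 and 3 averaged first). Gypsy-13 falls from AC to TM to MZ, and Gypsy-116, Gypsy-64 and Gypsy-91 lie lower in AC than in both other species.

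Between TM and MZ testes few members differed. In TM 2 of 100 were higher and 6 lower, against 4.15% and 7.22% of all families, with a median of 0.02 for members and for all families. Counting TM replicates 1 and 3 separately gave 7 and 9, and leaving out MZ replicate 1 gave 7 higher. Without TM replicate 2 the counts were 1 and 1, and without TM replicate 4 they were 1 and 2. Scaled to all reads, with the median of all families at 0.36, 58 members were higher and 0 lower (limma; 1 lower at an unadjusted p under 0.05), against 62.2% and 2.16% of all families. Scaled to the summed TE values, 3 were higher and 4 lower, against 5.42% in each direction. The Gypsy-71 entry was at 5.66, 5.59, 5.68 and 5.65 in TM against 5.10 and 4.86 in MZ, a difference of 0.66 ± 0.10 (adjusted p = 0.00882) that its internal entry shared at 0.62 ± 0.09. It was the 1 named entry whose call no single library ended.

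Gypsy-13 was also higher in TM than in MZ, by 0.51 ± 0.12 (adjusted p = 0.0377, and 0.057 to 0.13 without MZ replicate 2, TM replicate 2 or TM replicate 4). Its levels were thus ordered AC ovaries, AC testes, TM testes and MZ testes, with group means of 9.05, 8.48, 7.89 and 7.38. Neighbours in that order did not overlap, which the naming rule required. This was the widest range of group means among the members, at 1.67, against a median range of 0.49. The order of AC ovaries and AC testes turned when scaled to all reads. On the lower side, Gypsy-50 was at 3.96, 4.01, 3.99 and 3.95 in TM against 4.44 and 4.62 in MZ, a difference of -0.55 ± 0.09 (adjusted p = 0.00951), against -1.15 ± 0.10 in its internal entry.

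Gypsy-2, Gypsy-94, Gypsy-80 and Gypsy-58 were lower in TM than in MZ by -0.65 ± 0.15, -0.56 ± 0.11, -0.52 ± 0.10 and -0.38 ± 0.08. Each of these calls, and that of Gypsy-50, was lost without TM replicate 2 or TM replicate 4 or both (adjusted p = 0.0542 to 0.128). None of the 5 calls held when scaled to all reads.

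Within pairs, the LTR entry was higher relative to the internal entry in TM than in MZ in 14 of 99 Gypsy pairs and lower in 7, against 13.6% and 5.84% of all pairs. The total of 21 became 28 with TM replicates 1 and 3 counted separately, 12 without TM replicate 2 and 9 without TM replicate 4. It was 31 without MZ replicate 2, a fit in which the single MZ library is assumed to vary like those of TM. Gypsy-107 shifted most of all pairs and comparisons described here. It was at 0.21, 0.36, 0.21 and 0.31 in TM against -1.03 and -1.68 in MZ, a difference of 1.65 ± 0.16 (adjusted p = 4.81e-05). On the deposited scale the LTR entry itself hardly differed, at -0.12 ± 0.11, and the internal entry was lower in TM, by -1.77 ± 0.18 (adjusted p = 0.00129). Gypsy-95 and Gypsy-30 showed the same arrangement on that scale, with shifts of 1.13 ± 0.14 and 0.88 ± 0.13. Their LTR entries were at 0.13 ± 0.10 and 0.11 ± 0.13 and their internal entries at -0.99 ± 0.17 and -0.77 ± 0.16. Gypsy-2, at -0.54 ± 0.11, lost its call with all groups in 1 fit (adjusted p = 0.151), whereas these 3 kept theirs. Its LTR entry lay below the alternative minimum of 100, so that setting did not test it. With the replicate number as a block, these 3 and Gypsy-2 lost their calls (limma, adjusted p = 0.0972 to 0.194). Of all the named pairs in this comparison, these 3 and Gypsy-2 kept their call without any 1 library. Gypsy-73 at 0.87 ± 0.23, Gypsy-55 at -0.50 ± 0.12, Gypsy-114 at -0.49 ± 0.12 and Gypsy-82 at -0.45 ± 0.12 did not, since without TM replicate 4 they came to adjusted p = 0.0576 to 0.107, and Gypsy-114 and Gypsy-82 also without TM replicate 2 (0.0686 and 0.071) and Gypsy-82 without MZ replicate 1 (0.105).

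Between AC and MZ testes the LTR entry was higher relative to the internal entry in 6 of 99 Gypsy pairs in AC and lower in 1, against 4.55% and 0.649% of all pairs, with a median shift of 0.0006. Gypsy-30, Gypsy-77, Gypsy-107 and Gypsy-81 were higher in AC, by 0.86 ± 0.20, 0.79 ± 0.17, 0.74 ± 0.18 and 0.72 ± 0.19. Gypsy-86 was the 1 that was lower, at -0.69 ± 0.17 (adjusted p = 0.0313). None of these 5 calls held without AC replicate 4 (adjusted p = 0.0597 to 0.0808) or without MZ replicate 2 (adjusted p = 0.213 to 0.305), Gypsy-81 was lost without AC replicate 1 (adjusted p = 0.0577), and only Gypsy-107 was kept without MZ replicate 1. Without AC replicate 4 or without MZ replicate 2 no Gypsy pair was called by limma (26 and 15 at an unadjusted p under 0.05), without MZ replicate 1 there were 3, and without AC replicate 2 or 3 there were 11 and 13.

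**Figure D5:**
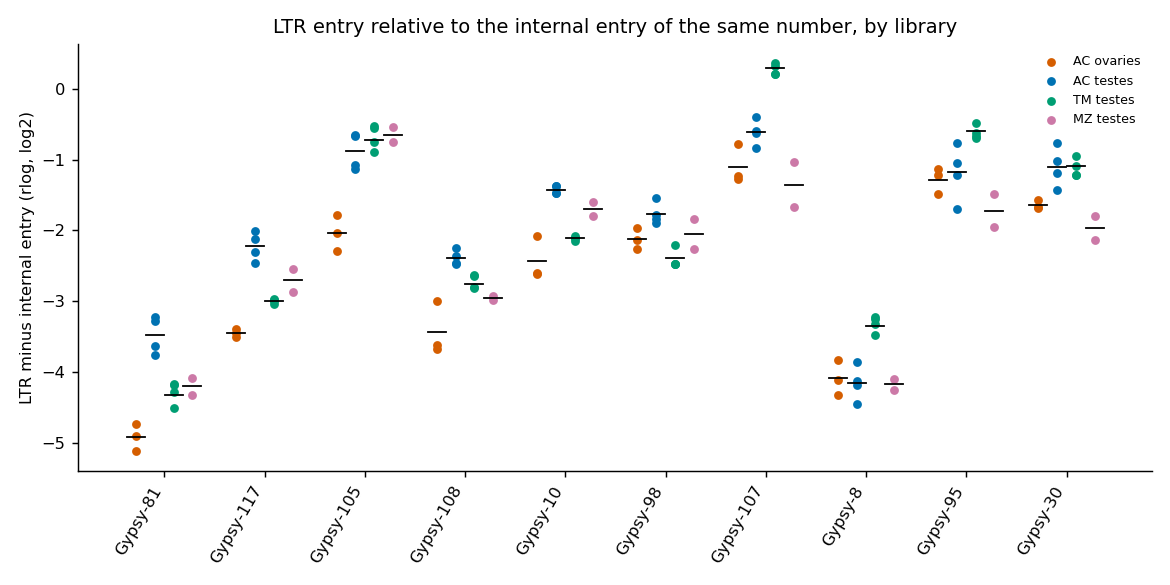
LTR entry minus internal entry (rlog, log2) in each gonad library for 10 Gypsy pairs named in the comparisons of this difference, with black bars for group means (TM replicates 1 and 3 averaged first). Gypsy-81 and Gypsy-117 lie lowest in AC ovaries and highest in AC testes, and Gypsy-107 lies above 0 in TM and below 0 in the other groups.

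Gypsy-12 and Gypsy-86 were followed because the supplement to the study lists them among the TE families with many insertions that are polymorphic within A. calliptera, and their LTR entries behaved differently. The Gypsy-12 entry was at 8.47, 8.60 and 8.42 in AC ovaries, 8.42, 8.29, 8.59 and 8.70 in AC testes, 8.45 and 8.40 in MZ testes and 8.34, 8.65, 8.31 and 8.63 in TM testes. Its gonad group means spanned 0.11, the narrowest range among the members, and all the groups overlapped. Its internal entry had many more reads, at 12.23 to 12.81 in gonads, and the difference within the pair passed no test. The Gypsy-86 entry was at 7.56, 7.84 and 7.86 in AC ovaries against 6.86, 6.82, 7.19 and 7.38 in AC testes, a difference of -0.69 ± 0.17 (adjusted p = 0.00866) on the deposited scale and of 0.67 when scaled to all reads. Its internal entry differed by the same -0.69 ± 0.11, so the difference within the pair was at -0.0003 ± 0.16. Relative to the internal entry, the Gypsy-86 LTR entry was lower in AC than in TM testes, by -0.51 ± 0.13 (adjusted p = 0.0133).

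Gypsy LTR entries held 3.06% ± 0.25 of the summed TE values in AC ovaries (SD, n = 3), 3.64% ± 0.12 in AC testes (n = 4), 3.84% ± 0.17 in TM testes (n = 3) and 3.78% ± 0.04 in MZ testes (n = 2). The ovary libraries, at 2.86% to 3.34%, lay below all testis libraries, at 3.56% to 3.97%. With NA-DNA-22 left out of the sum, ovaries were at 3.75% ± 0.04 and AC testes at 3.70% ± 0.13. The Gypsy internal entries held 20.9% ± 1.9 in AC ovaries and 21.6% ± 0.4 in AC testes.

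In the single muscle library the Gypsy LTR entries held 2.20% of the summed TE values (95% Wilson interval 1.96% to 2.46%, counting error only). The internal entries held 8.51%, and NA-DNA-22 alone held 37.6%. The interval rests on reads estimated from rlog values, which are shrunken for entries with few reads, and not on counted reads. With 1 library there is no test. Of the 100 members 7 lay at least 1 above the mean of AC ovaries and testes and 0 at least 1 below, against 13.3% and 5.21% of all 557 families. The members' median was 0.12 and that of all families -0.08. Scaled to the summed TE values, 2 lay at least 1 above and 27 at least 1 below, against 3.59% and 46% of all families, and the medians were -0.74 and -0.95, so the direction of the members as a group depends on the scale. Gypsy-73 stood far above the rest. Its LTR entry was at 11.96 in muscle, against 8.66, 8.16 and 8.22 in ovaries and 8.37, 8.51, 8.68 and 8.66 in testes, a difference of 3.51. In muscle this LTR entry was above the internal entry, by 1.52, whereas the same difference was between -4.29 and -2.69 in the 13 gonad libraries. The internal entry had an estimated 6.9 reads in muscle.

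The estimated number of reads behind the Gypsy-73 value in muscle was 19.7, more than for all other members except Gypsy-49, at 21.2. Gypsy-36 came next in the difference from gonads, at 1.88, but with an estimated 0.7 reads in muscle, and Gypsy-8 at 1.35, with 3.3. The farthest below were Gypsy-13 at -0.78, Gypsy-77 at -0.74 and Gypsy-107 at -0.64, with 1.3 to 3.6 estimated reads each. With fewer than 4 estimated reads in 1 library, none of these differences could be tested, those of Gypsy-36 and Gypsy-8 included. Among the other members at least 1 above, Gypsy-62 and Gypsy-86 had 2.0 and 1.9 estimated reads, Gypsy-93 5.9 and Gypsy-40 16.9.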

How the data were processed

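The sRNA libraries were made by the authors from gonads of AC, MZ and TM and from AC muscle. Per the labels and the methods, the authors trimmed adapters with cutadapt 1.15, selected those 24 to 35 nucleotides long, aligned them to the AC genome fAstCal1.2 with STAR 2.5.4b (at most 2 mismatches, up to 100 loci, 1 of them chosen at random), counted them without strand over RepeatMasker annotations of a curated TE library with featureCounts 1.6.0, and normalised them with DESeq2 (version not given in the sources used here). The deposited values are rlog values on the log2 scale, 1 per family and library, and were used as they are. The rlog transformation shrinks entries with few reads, and random placement of reads can split near-identical families, so such entries are uncertain. The other 4 tables, whose families carry no names, were not used. Counts cannot be had back from rlog values, so no count test was run. Reads per entry were estimated from the linear values and the library totals of the study.

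The members and lists were chosen with earlier results of these data known. Levels were compared with limma 3.58.1 in R 4.3.3 (mean trend, Benjamini-Hochberg adjustment, threshold 0.05) over all families whose linear mean reached 10, and only the 2 groups compared entered a fit. The LTR minus internal difference was tested in the same way over the pairs of all superfamilies. Averaging TM testes replicates 1 and 3 had been planned as an alternative and became the main fit because of their agreement. Errors are SEs of limma unless named. P-values set a difference between groups against the spread of libraries within groups. In limma that spread is pooled over the groups in a fit and drawn towards a trend over the families or pairs tested. No sequencing batch is given in the labels, and the replicate number marks no shared animal. Muscle was set against the mean of the ovary and testis means. Named members follow a rule: those with no overlap of libraries and the largest change past the threshold (8 per direction between organs, 5 between species, 4 pairs per direction), the 5 highest and 3 lowest levels, 3 per side in muscle, pairs with opposite calls, Gypsy-12 and Gypsy-86. Alternatives were other minimum values (none, 100), a pseudocount of 10, 2 other scalings, all groups in 1 fit, the replicate number as a block, and each library left out. The fits were also run on simulated data, for AC testes against AC ovaries only. Changes of 1 were planted there, and every group had the spread of AC testes. Smaller changes, unequal spread and the other comparisons were not simulated. Python 3.11.15 served for tables (pandas 2.3.3, numpy 2.4.6), intervals (scipy 1.17.1) and plots (matplotlib 3.10.9).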

Additional observations from a re-analysis of the deposited data

Results flagged for a closer look

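Of 41 named members, 3 had 1 AC testis library far from the other 3, by the gap to the nearest library over the whole range; chance flags about 1 in 20 groups. The Gypsy-75 LTR entry was at 8.12 in replicate 3 against 7.86 to 7.88 in the others, and the Gypsy-79 LTR entry was at 8.75 in replicate 3 against 8.41 to 8.47. The Gypsy-8 LTR entry was at 7.59 in replicate 1 against 8.04 to 8.07. Gypsy-75 stayed lower in AC than in TM testes, and Gypsy-79 stayed higher in AC than in MZ testes, without that library.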

How the results depend on the processing

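Scaling decided most splits of the level calls. Between AC testes and ovaries, all reads gave 46 higher and 0 lower members (median 1.24), against 54.5% and 0.18% of all families. The summed TE values gave 38 and 0 (median 0.26), against 48.2% and 5.05%. Scaled to all reads, Gypsy-23, Gypsy-28, Gypsy-86, Gypsy-74, Gypsy-6, Gypsy-13, Gypsy-100 and Gypsy-26 turned to 0.39, 0.59, 0.67, 0.70, 0.77, 0.79, 0.79 and 0.83, because every family moved up with the scale. The medians became -0.12 (all reads) and -0.15 (summed values) for AC against TM, 0.27 (all reads) for AC against MZ and 0.36 (all reads) for TM against MZ. For AC against MZ the counts became 35 higher and 2 lower (all reads), against 57.4% and 1.62% of all families, and 9 lower (summed values), against 6.14%. For TM against MZ they became 58 and 0 (all reads), against 62.2% and 2.16%. Means in place of medians gave -0.057 between organs and -0.14 for AC against TM. A minimum of 100 gave 9 lower for AC against MZ and 1 higher for TM against MZ. All groups in 1 fit gave 25 lower between organs, 5 higher for AC against TM, 12 changed pairs for AC against MZ, and 1 higher and 7 changed pairs for TM against MZ. TM replicates counted separately gave 7 higher for TM against MZ. Averaging the TM replicates that agreed had been planned as an alternative. It was made the main fit after the data were seen. Of the 43 named level calls, 0 were lost with no minimum or a pseudocount of 10, 5 with all groups in 1 fit, 11 under the replicate block and 9 on the summed TE values, and on all reads 8 were lost and 8 turned. Of the 28 named pair calls, 1 was lost with no minimum, 0 with a pseudocount of 10, 6 with all groups in 1 fit and 9 under the block. Apart from the move of every family with the scale, which holds by construction, the cause of these moves was not tested.

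Replicate numbers mark no shared animal, since the groups compared differ in sex or in species. Correlations of the deviations of same-numbered libraries were -0.10 to -0.05 between AC organs and 0.02 to 0.18 for AC and TM. In these, 0 of 3 and 1 of 4 AC testis libraries correlated best with their own number. The correlations were -0.11 to -0.08 for AC and MZ and -0.36 to -0.21 for TM and MZ. With 2 MZ libraries, the values for MZ replicates 1 and 2 are equal and opposite by construction, so they cannot show a shared number. The block gave 7 higher members and 17 changed pairs between organs, 13 higher for AC against TM, 2 higher, 8 lower and 17 changed pairs for AC against MZ, and 0 higher, 0 lower and 0 changed pairs for TM against MZ (limma; 7, 7 and 21 at an unadjusted p under 0.05).

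Without 1 library each, the ranges were 7 to 10 higher, 10 to 17 lower, 20 to 27 pairs and a median of -0.13 to -0.056 between organs, 5 to 10, 12 to 29, 17 to 37 and -0.18 to -0.16 for AC against TM, 0 to 3, 0 to 9, 0 to 13 and -0.20 to -0.11 for AC against MZ, and 1 to 7, 1 to 6, 9 to 31 and -0.0022 to 0.06 for TM against MZ. In muscle, 29 members lay 1 or more from the gonads when scaled to the summed values (2 above and 27 below, against 3.59% and 46% of all families), and 31 lay 0.5 or more on the deposited scale. The share without NA-DNA-22 was 3.75% in ovaries, 4.01% in MZ and 3.52% in muscle, and of entries named LTR or internal alone it was 8.01% in ovaries, 8.81%, 9.07% and 8.98% in AC, TM and MZ testes and 12.5% in muscle. Muscle is limited by its few reads and its single library.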
